A study of Mus musculus with 2 samples.

Results

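The 9 genes described here take up, store, export and sense iron: Tfrc, Trf, Fth1, Cp, Slc40a1, Slc11a1, Slc11a2, Ireb2 and Aco1. They were chosen by name, and every probe set of the array whose platform symbol is 1 of them was taken. This gave 28 of the 45101 probe sets. The members and the gene lists set beside them were chosen with earlier results of these data known, so counts over them are descriptions only. Of the 28 probe sets, 24 name a single member, 3 are Affymetrix control probe sets for Tfrc, and 1 names Trf together with a second gene, Srprb. Trf has no probe set of its own, so 8 of the 9 genes have values that can be assigned to them, of 18193 genes named on the array.

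The signals come from RNA of whole kidneys of inv mice, which model nephronophthisis type 2 because the gene for the ciliary protein inversin is disrupted, and of control mice. Both kinds of mice carried inv-deltaC::GFP, a transgene for inversin without its C-terminus. The control was +/+ and the cystic kidney inv/inv at the inv locus, so the control is not free of the transgene, and the sources used here do not name its promoter. The series design puts the mice at 4 weeks of age. For the cystic sample the labels add an age of 28 days and a female sex, and for the control sample they are silent on sex. Each kind of kidney was read on 1 array, the number of animals behind its RNA is not clear from the labels, and no test between the groups was possible. In such RNA, fewer cells of a type and less RNA per cell cannot be told apart.

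The labels were checked first. Invs, the mutated gene, went from a signal of 118 to 15.9 at its brightest probe set, with the cystic signal under the background floor defined below. Xist, which is transcribed from the inactive X chromosome of females, went from 387 to 57.4 at its brightest probe set, and the latter is also under the floor. The Y-linked genes Eif2s3y, Kdm5d and Uty were above the floor on both arrays, at 131.7, 151.5 and 205.7 in the control and 141.5, 194.2 and 197.6 in the cystic kidney at their brightest probe sets. The control array thus had both Xist and Y-linked signals above the floor, and the cystic array only the Y-linked ones. These signals go against the label for the array labelled female, and the sex of the RNA may differ between the arrays. Its part in the differences below was not tested and cannot be told apart from the genotype.

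Cells take up iron bound to transferrin through the transferrin receptor, move it out of the endosome through a divalent metal transporter, keep the surplus inside ferritin, and release it through ferroportin with the help of a copper ferroxidase such as ceruloplasmin. The iron regulatory proteins, encoded by Aco1 and Ireb2, bind stem-loops called iron-responsive elements in several of these mRNAs when iron is low. Binding stabilises the transferrin receptor mRNA, while on ferritin and ferroportin mRNA it blocks translation, a step that mRNA signals do not report. In the kidney, the proximal tubule recovers filtered transferrin and other iron-binding proteins by endocytosis. In the body at large, macrophages recycle iron from engulfed red cells.

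Among the iron genes, ceruloplasmin (Cp) stood out, at 6.40-fold higher in the cystic kidney by its brightest probe set. The macrophage metal transporter Slc11a1 was 2.24-fold higher, and the probe set shared by Trf and Srprb was at least 6.36-fold higher. Aco1 was 1.80-fold and Slc11a2 1.71-fold lower, with probe sets of either gene that differed in size. The signals of Tfrc, Fth1, Slc40a1 and Ireb2 differed by at most 1.26-fold at their brightest probe sets.

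**Figure D1:**
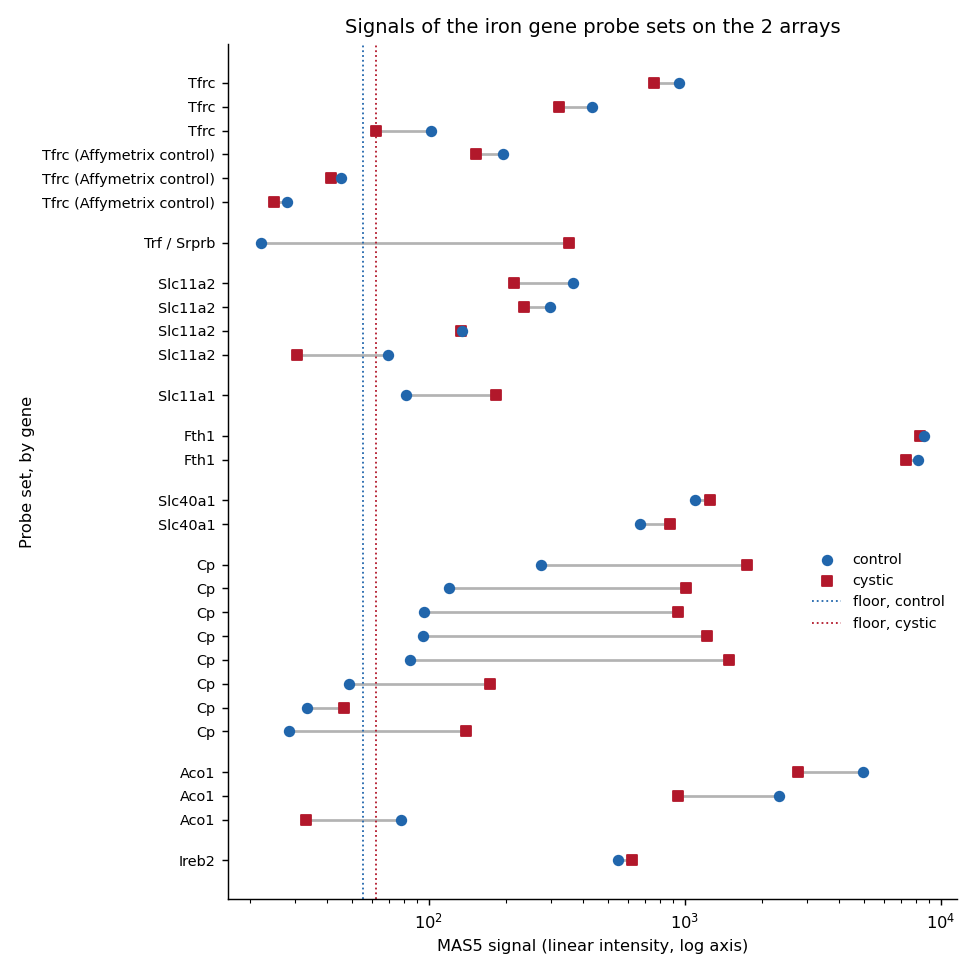
MAS5 signal (linear intensity on a log axis) of all 28 probe sets of the iron genes on the control array (circles) and the cystic array (squares), with a line joining the values of a probe set and dotted lines at the floors of 55.4 and 61.9. Most Cp probe sets and the probe set of Trf and Srprb shift far to the right, the Aco1 probe sets shift to the left, and the Fth1 probe sets barely move.

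Values below are MAS5 signals, a linear intensity that is not comparable between genes. Ratios are cystic over control, and log2 ratios are cystic minus control. A signal under the median of its array, 55.4 on the control and 61.9 on the cystic array, was raised to that floor, and the ratio is then a bound. By the brightest probe set of each gene, 2 of the 8 genes passed 2-fold upwards in the cystic kidney, against 7.06% of the 12015 measured genes of the array, and none passed it downwards, against 3.78%. At a limit of 1.5-fold, the same 2 genes were higher, against 16.4% of all measured genes, and 2 were lower, against 10.8%. The 8 log2 ratios had a median of 0.07, beside 0.09 over all measured genes, with 4 above and 4 below 0. Of the 23 measured probe sets that name a single member, 8 were at least 2-fold higher, against 6.00% of all measured probe sets, and 7 of these 8 read Cp. A single probe set, of Aco1, was at least 2-fold lower, against 3.21%.

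The only repeat measurement is technical: for 4694 genes with several measured probe sets, the log2 ratios within a gene scattered with an SD of 0.29 (pooled). By their brightest probe sets, Cp, Slc11a1, Slc11a2 and Aco1 lay further from 0 than 2 times this SD (0.59), and the other 4 did not. This limit is close to 1.5-fold, which 16.4% of all measured genes passed upwards and 10.8% downwards. The other Slc11a2 probe sets above the floor on both arrays, at -0.34 and -0.02, lay within it. Centring the arrays on their medians shifted the median of all genes from 0.09 to -0.07, and the share of higher genes among those past 2-fold from 65.1% to 47.5%. This shift is of the size of the differences of Slc40a1, Ireb2 and Fth1 given below, so no change is read from those genes.

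**Figure D2:**
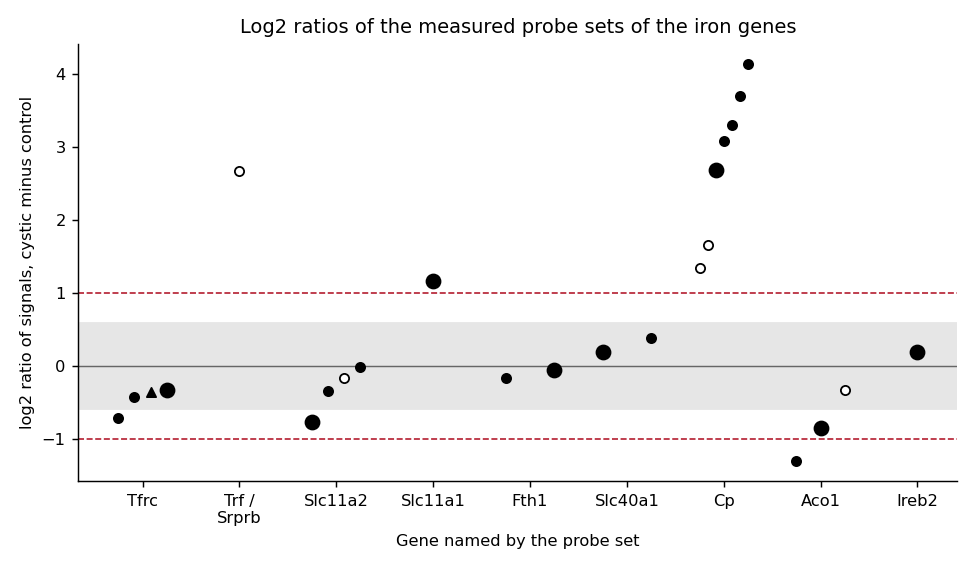
Log2 ratio (cystic minus control) of each measured probe set of the iron genes. Large circles mark the brightest probe set of a gene, open circles are bounds, the triangle is an Affymetrix control probe set, the grey band is 2 times the SD between probe sets and dashed lines mark 2-fold; all Cp points lie above the upper dashed line, and 1 Aco1 point lies below the lower one.

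Uptake of transferrin-bound iron depends on the transferrin receptor, Tfrc, and its ligand transferrin, Trf. The Tfrc signal went from 950 in the control to 755 in the cystic kidney at its brightest probe set, a log2 ratio of -0.33. The other Tfrc probe sets went from 432.6 to 323.5 and from 101.5 to 62.3, with log2 ratios of -0.42 and -0.70. All 3 were lower in the cystic kidney and none reached 2-fold. The cystic signal of the dimmest of these, 62.3, lay barely above the floor of 61.9. The Affymetrix control probe set at the 3′ end of the transcript went from 195.4 to 153, a log2 ratio of -0.35, near that of the brightest probe set. Those for the middle and the 5′ end were under the floor on both arrays. The ratio of 3′ to 5′ control signal, a sign of RNA quality, was 0.779 on the control and 0.780 on the cystic array for Gapdh, and 1.23 and 1.17 for Actb. The arrays were thus close to each other for Gapdh and Actb, and no such ratio is given for Tfrc, whose 5′ signal was under the floor.

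Tfrc is highly expressed in red cell precursors and dividing cells. Of 9 erythroid markers with a probe set of their own only Klf1 and Sptb were measured, and the alpha globin gene Hba-a1 was under the floor on both arrays. Cell cycle markers had log2 ratios above 0 in 11 of 11 measured genes, with a median of 0.54 and none past 2-fold, although the largest of them, Top2a, had 0.88 at its brightest and -0.19 at its second probe set. With median centring, 10 of the 11 were above 0. Their summed signal went from 4495.7 to 5807.3. The part of these cells in the Tfrc ratio was not tested.

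A start of Tfrc listed by RefSeq (GRCm38.p6) carries the letters of the hypoxia-inducible factor core motif, ACGTG, across its first base. It is shown because Tfrc is a textbook target of that factor. The stretch covers chr16:32608880-32608909 on the plus strand, with the motif in capitals and its first letter at position -2 from the start.
Tfrc: acctcggtaggtgtACGTGcggaaggaagt

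For 6 of the members 9 windows are listed, each 250 bases before to 50 after a start. ACGTG was found on either strand in 2 of them and in 19.6% of all 32851 windows. Both windows are of Tfrc and overlap, and the match in them is the same site. No member window held TGACNNNGC, the core of the antioxidant response element, which 12.4% of all windows held. The hypoxia response list holds genes of glucose uptake and glycolysis beside others such as Vegfa, Car9 and Egln1. It had no gene past 2-fold among 14 measured, with 6 above 0, 8 below 0 and a median log2 ratio of -0.17. The highest was the hexokinase Hk2, which went from 36.4, under the floor, to 109.9, at least 1.98-fold higher, and which passed 2-fold with the floor at the 40th percentile and with no floor. Its brightest members, Ndrg1, Pgk1 and Ldha, had -0.31, -0.16 and -0.18, and its summed signal went from 26374.5 to 22468.3.

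The probe set that names Trf together with Srprb, a subunit of the signal recognition particle receptor, went from a signal of 22.1 in the control to 352.5 in the cystic kidney. The control signal lay under the floor, so the probe set was at least 6.36-fold higher. Srprb has 3 probe sets of its own, which went from 84.8 to 91.1, from 145.1 to 159.8 and from 265.5 to 389.1, with log2 ratios of 0.10, 0.14 and 0.55. The Srprb probe sets thus showed differences under 2-fold, while which of the genes the shared probe set reads was not examined here, and its value is not assigned to Trf.

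Slc11a2, also known as DMT1, carries ferrous iron out of the endosome and across the cell membrane. The Slc11a2 signal went from 366.4 to 214.8 at the brightest of its 4 probe sets, a log2 ratio of -0.77. The next went from 297.7 to 235.1 (-0.34), and the third from 135.2 to 133.4 (-0.02). The dimmest went from 69.3 to 30.6, under the cystic floor, which gives a bound of -0.16. None was higher in the cystic kidney, but the difference ranged from almost nothing to 1.71-fold, and the median over the probe sets was -0.25.

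Slc11a1, also known as NRAMP1, is a metal transporter in the phagosome membrane of macrophages. Its single probe set went from 81.3 in the control to 182.1 in the cystic kidney, a log2 ratio of 1.16. The control signal was not far above its floor. Slc11a1 was at 0.97 with quantile normalization and at 0.9975 with loess, which is under 2-fold, and at 1.0034 with median centring. Macrophage markers moved with it: 12 of 15 were at least 2-fold higher and none was at least 2-fold lower. The median log2 ratio was 2.12, with a range from 0.49 to 4.00. Of the 15, 10 were above the floor on both arrays. The ratios of the others, among them the median and the lowest, are lower bounds. Their summed signal went from 2425.2 to 11575.3, and Csf1r, Lyz2 and C1qa were the brightest on the cystic array. The part of macrophage number in the Slc11a1 difference was not tested.

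The promoter of Slc11a1 holds the letters GAGGAA, the core bound by PU.1, the transcription factor of macrophages, and is printed for that reason. The stretch is chr1:74374953-74375202 (GRCm38.p6, plus strand), the 250 bases before the start listed by RefSeq, with the match in capitals at position -152.
Slc11a1: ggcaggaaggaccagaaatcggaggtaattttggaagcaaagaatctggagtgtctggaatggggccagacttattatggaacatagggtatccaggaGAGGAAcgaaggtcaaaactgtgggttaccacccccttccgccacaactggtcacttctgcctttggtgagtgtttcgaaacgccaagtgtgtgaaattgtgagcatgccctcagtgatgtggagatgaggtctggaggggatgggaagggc

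The same letters were found, on either strand, in the window of Ireb2 and in 28.3% of all windows, so the match is a description only.

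Ferritin stores iron in a shell of heavy and light chains, and Fth1 encodes the heavy chain, which oxidises iron on entry. The Fth1 signals went from 8630.1 to 8302.8 and from 8165.7 to 7289.2, with log2 ratios of -0.06 and -0.16. With quantile normalization and loess the brightest probe set had 0.08 and 0.14, so no direction is given for Fth1. The light chain gene Ftl1 had no probe set naming it alone.

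Slc40a1 encodes ferroportin, the iron exporter of the cell membrane. Its signals went from 1096.7 to 1255 and from 670.8 to 875.8, with log2 ratios of 0.19 and 0.38. Both were slightly higher in the cystic kidney and within 2 times the SD between probe sets, and the brightest had 0.03 with median centring.

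Ceruloplasmin, the product of Cp, oxidises iron as ferroportin releases it and is made by the liver as an acute phase protein and by other tissues, with secreted and membrane-anchored forms. Cp was read by 8 probe sets. The brightest went from 273.1 in the control to 1747.5 in the cystic kidney. Next came probe sets that went from 119.9 to 1010.3, from 95.7 to 940.2, from 94.5 to 1218.2 and from 84.7 to 1486.7. These 5 were above the floor on both arrays, and they were 6.40-fold, 8.43-fold, 9.82-fold, 12.9-fold and 17.6-fold higher. Another pair was under the floor in the control, from 48.6 to 174 and from 28.3 to 139.9, which makes them at least 3.14-fold and at least 2.53-fold higher. The remaining probe set, from 33.4 to 46.5, was under the floor on both arrays.

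All 7 measured Cp probe sets were therefore past 2-fold in the same direction, while the size ranged from a log2 ratio of 2.68 to 4.13 among those above the floor on both arrays. The probe set with the highest control signal gave the smallest of these 5 ratios, and that with the lowest gave the largest. The control signal is itself the divisor of each ratio, so this order is a description only. Which exons or forms of Cp the probe sets read was not examined here. By its brightest probe set, the Cp log2 ratio was exceeded by that of 0.37% of the measured genes.

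Liver transcripts were measured beside Cp, since hepatocytes are its best known source. Of 11 hepatocyte markers with a probe set of their own, Apoa1, Ttr, Ahsg, Fabp1, F2 and Apoh were under the floor on both arrays. None of the 5 measured was past 2-fold, but Apoa2, Apob and Cps1 could not have passed it. Their cystic signals were under the floor and their control signals, 78.6, 59 and 60.8, near it. Apob and Cps1 give no direction. The albumin gene Alb went from a signal of 65.8 to 91.7. The summed signal of the list went from 3190.5 to 1799.8, most of it from Cyp2e1, which kidney cells also express. The part of liver transcripts in the Cp ratio was not tested. Endothelial markers had a median log2 ratio of 0.04 over 10 genes, -0.12 with median centring, and none past 2-fold.

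A start of Cp listed by RefSeq (GRCm38.p6) has the letters of a TATA box, TATAA, in the usual place upstream. It is shown because Cp is the member with the largest difference. The stretch is chr3:19957211-19957240 on the plus strand, with matches on either strand in capitals, which overlap and begin at position -26.
Cp: atgaagccctatTTATAAaattgcttgctt

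At any position and on either strand, TATAA was found in 4 of the 9 member windows, of Cp, Fth1 and Tfrc, and in 24.9% of all windows. The window of the other listed Cp start held none. The share of windows with a match in the usual place was not counted.

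The iron sensors were read by 4 probe sets. Aco1 encodes iron regulatory protein 1, which is a cytosolic aconitase when it holds an iron-sulphur cluster and an RNA-binding protein when it does not. The Aco1 signal went from 4973.3 in the control to 2758.9 in the cystic kidney at its brightest probe set, a log2 ratio of -0.85. The second went from 2325.7 to 941.6, which is 2.47-fold lower (-1.30). The third went from 78 to 33, under the cystic floor, a bound of -0.33. All 3 were lower in the cystic kidney, and the gene lay just short of 2-fold at its brightest probe set and past it at the next. With median centring the brightest had -1.01, past 2-fold. The brightest is of a kind (_x_at) that Affymetrix marks as open to binding by other transcripts.

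Ireb2 encodes iron regulatory protein 2, which is removed by the proteasome when iron is plentiful. Its single probe set went from 545.8 to 621.3, a log2 ratio of 0.19, and 0.03 with median centring. The sensor genes therefore had values on opposite sides of 0, but the Ireb2 difference lies within 2 times the SD between probe sets.

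Aco1 and Slc11a2 were lower beside markers of the proximal tubule, the most abundant epithelium of the kidney cortex. Of 14 measured markers 9 were at least 2-fold lower and all 14 had log2 ratios below 0, with a median log2 ratio of -1.33 and a range from -2.55 to -0.21. Their summed signal went from 64832.9 to 32545.4, and Kap, Miox and Slc34a1 were the brightest on the control array. The part of proximal tubule content in the Aco1 and Slc11a2 differences was not tested.

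**Figure D3:**
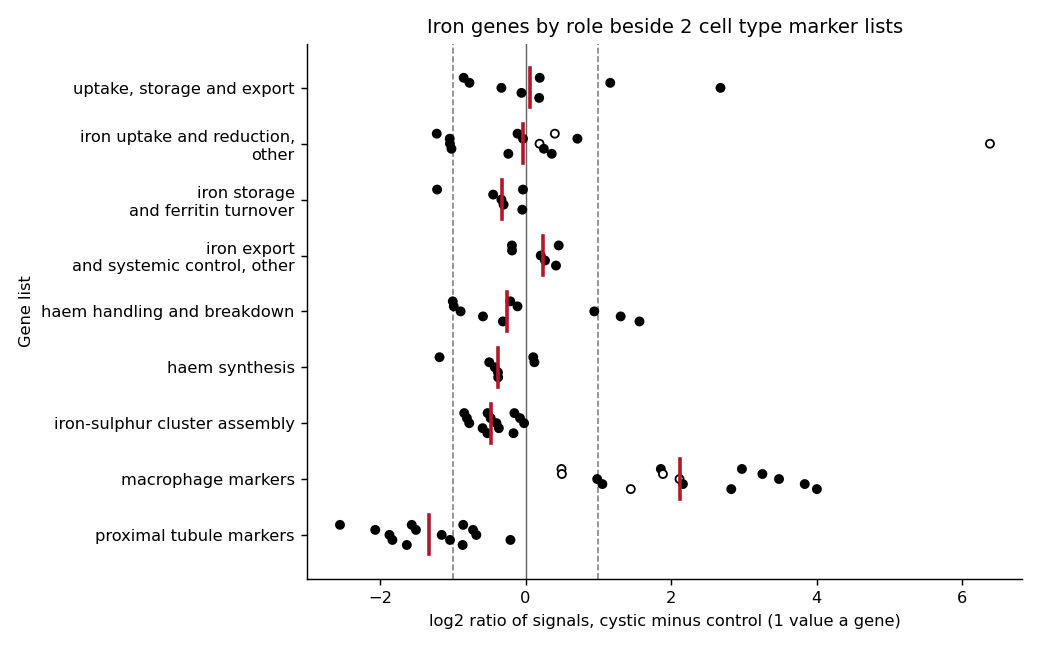
Log2 ratio (cystic minus control) of each measured gene of the iron gene lists and of the macrophage and proximal tubule markers, 1 value a gene, with bounds as open circles, list medians as vertical bars and dashed lines at 2-fold; Hamp, which has no readable direction, is left out. The 8 members spread to both sides of 0, all 13 genes of iron-sulphur cluster assembly lie below 0, and the point at the far right is Lcn2.

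Beyond the members, 72 further iron genes in 6 lists by role were examined, of which 66 had a probe set of their own and 56 were measured. At least 2-fold higher were 3 (Lcn2, Flvcr1 and Lrp1), and at least 2-fold lower were 6 (Lrp2, Cubn, Amn, Slc39a8, Bdh2 and Cpox), beside the shares of all genes given above. One more, the hormone gene Hamp, gives no direction, since it was under the floor of the cystic array and between the floors of the arrays in the control. The log2 ratios of the other 55 had a median of -0.24, beside 0.09 over all measured genes, with 40 below and 15 above 0. The shares of all measured genes above and below 0 are not given here. Such counts, in this and the other lists, are therefore descriptions only.

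In uptake and iron reduction, 1 of 13 measured genes was past 2-fold higher and 4 were past it lower. With no floor, these counts were 2 and 5. Steap4 went from 15.7, under the floor, to 73.2, at least 1.32-fold higher. It passed 2-fold with the floor at the 40th percentile and with no floor. Steap1 had a log2 ratio of 0.71, and 1.11 without _s_at, _x_at and _a_at probe sets. Lcn2, which binds iron-carrying siderophores and marks tubular injury, went from 34.7 to 4610.3, at least 83.2-fold higher. Its proposed receptor Slc22a17 had a log2 ratio of 0.36. The proximal tubule endocytic receptors that recover filtered transferrin moved the other way. Lrp2, which encodes megalin, went from 5731.1 to 2460.6 (2.33-fold lower), Cubn from 3440.2 to 1675.3 (2.05-fold) and their partner Amn from 2519.5 to 1244.6 (2.02-fold). With quantile normalization and with loess, Cubn and Amn fell short of 2-fold, while Lrp2 did not. Slc39a8, a zinc transporter that also carries iron, went from 829.7 to 403.1 (2.06-fold lower).

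Storage and mitochondrial delivery had 6 measured genes, all with log2 ratios below 0. Pcbp1 and Pcbp2, the iron chaperones of ferritin, were however above 0 with quantile normalization and loess. Pcbp2 was above 0 also with the median over probe sets and without _s_at, _x_at and _a_at probe sets. Bdh2, an enzyme proposed to make a mammalian siderophore, went from 2204.7 to 949.7 and was 2.32-fold lower. Ncoa4, the receptor that delivers ferritin to the lysosome, had -0.44.

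Export and systemic control had 7 measured genes and none past 2-fold. The highest was Hfe, the gene of hereditary haemochromatosis, with 0.46, followed by the membrane ferroxidase Heph with 0.42. The lowest was Fbxl5, the subunit that marks iron regulatory protein 2 for removal, with -0.19. Hamp, which encodes the ferroportin-binding hormone hepcidin, had signals of 57.9 and 42.8.

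In haem handling, 2 of 10 measured genes were past 2-fold higher and none was past it lower. Flvcr1, a transporter first described as a haem exporter, went from 185.3 to 458.4 (2.47-fold higher), and Lrp1, the receptor of haem bound to haemopexin, from 186.9 to 552.8 (2.96-fold). Hmox1, the inducible haem oxygenase that frees iron from haem, went from 134.2 to 258.2 (1.92-fold), short of the limit. Abcg2, a haem and porphyrin exporter, and Flvcr2 had log2 ratios of -0.9994 and -0.89 and passed 2-fold lower with median centring alone. Slc46a1, a folate transporter that also carries haem, had -0.99 and passed 2-fold lower in 5 of 8 alternatives, down to -1.44. These were median centring, quantile normalization, loess, the median over probe sets, and leaving out _s_at, _x_at and _a_at probe sets. Both Flvcr1 and Lrp1 passed 2-fold under all 8 alternatives in which they were recomputed.

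Haem synthesis and iron-sulphur cluster assembly use iron in the mitochondrion. In haem synthesis 1 of 7 measured genes, Cpox, was past 2-fold lower (511.3 to 225.4), with -1.18 at its brightest and -0.58 at its second probe set. The highest was Alas1, the first enzyme of the pathway in most tissues, with 0.12, and its second probe set had -0.26. In cluster assembly none of 13 measured genes was past 2-fold, and all had log2 ratios below 0, from -0.84 for the cysteine desulphurase Nfs1 to -0.02 for Nubp2, with a median of -0.48. With median centring Nfs1 reached -1.0022 and was past 2-fold lower. All measured genes of this list were below 0 under each of the 8 alternatives, with medians from -0.64 to -0.35.

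**Figure D4:**
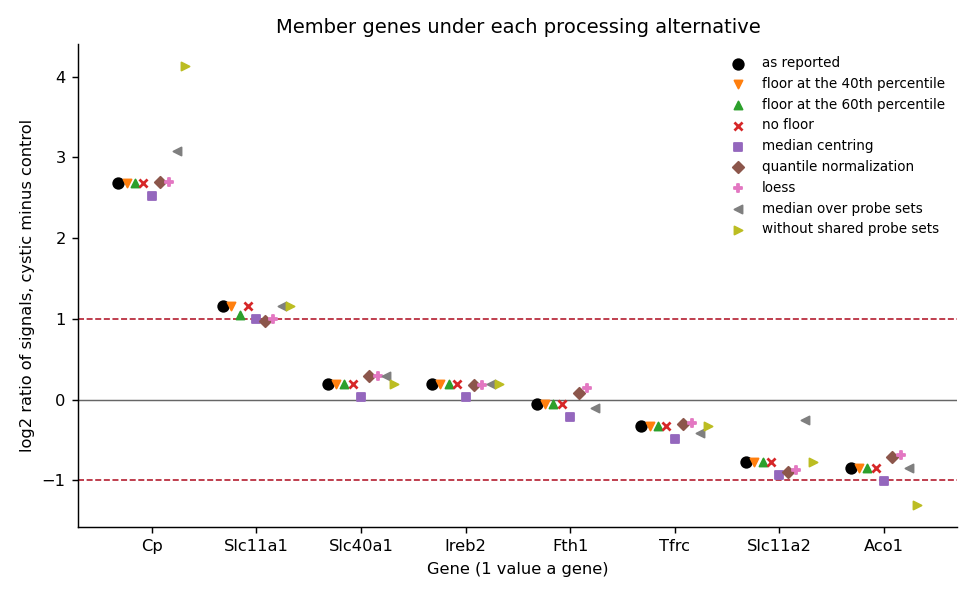
Log2 ratio (cystic minus control) of the 8 genes with a probe set of their own as reported (black) and under 8 processing alternatives, with dashed lines at 2-fold. Cp stays far above 2-fold throughout, Slc11a1 and Aco1 cross the line under some settings, and Fth1 crosses 0.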

How the data were processed

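Total kidney RNA, labelled with biotin, was measured on 1 Affymetrix array per group. The deposited values are a linear intensity, the signal of each probe set from MAS5, per the submitters' processing notes, with no version; the scaling target and detection calls are not given in the sources used here. Precision is limited by the number of arrays. Sample titles gave the groups. The members and gene lists were chosen with earlier results of these data known.

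The 64 control probe sets were left out of the floors and counts. The deposited scaling was kept, as 2% trimmed means (178.1 and 181.4) differed by 1.83%, under a limit of 2%. A gene took the value of the brightest probe set naming it alone. Of 45037 probe sets, 34945 named 1 gene, 932 several and 9160 none; symbols were updated through a RefSeq table of GRCm38.p6, and promoter windows are from RefSeq on that build. A probe set under both floors was not measured. Named beyond the members were genes past 2-fold in each iron list or, where none was, the furthest in each direction, the lists' brightest markers, and Ftl1, Hamp, Hmox1 and Lcn2. Genes named outside this rule, such as Slc22a17, Steap1, Steap4, Ncoa4, Heph, Pcbp1, Pcbp2 and Top2a, and the printed motifs were chosen after their values were seen. Counts and ratios were computed in Python 3.11.15 with pandas 2.3.3, loess with statsmodels 0.14.6, and the steps were tested on simulated arrays.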

Additional observations from a re-analysis of the deposited data

How the results depend on the processing

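With 1 array a group, no difference could be set against the spread between animals. Signals near the floor limit Slc11a1, a Tfrc probe set and the dimmer Cp, Aco1 and Slc11a2 probe sets. The alternatives were the floor at the 40th or 60th percentile or none, median centring, quantile normalization, loess, and the median over probe sets. A further alternative left out probe sets with the suffixes _s_at, _x_at or _a_at. Of the members, 1 instead of 2 was at least 2-fold higher with quantile normalization and with loess, where Slc11a1 fell short. At least 2-fold lower was 1 instead of 0 (Aco1) with median centring and without those suffixes, and 2 at a limit of 1.5-fold. Counted as Trf, a choice made after seeing the data, the probe set shared with Srprb made 3 members higher. Over all genes, 2093 were higher and 1666 lower with no floor, and 1970 and 1297 at 1.5-fold. The median of the members ranged from -0.09 with median centring to 0.19 without those suffixes. For single genes, Cp ranged from 2.52 to 4.13, Slc11a2 from -0.93 to -0.25 and Aco1 from -1.30 to -0.68. Fth1, which has only probe sets with those suffixes, was the sole member to change sign (-0.22 to 0.14).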
